A study of Gallus gallus with 9 samples.

Results

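BK channels are large-conductance potassium channels that open on depolarization and on a rise of intracellular calcium, and their subunits were followed here along the chick basilar papilla, the hearing organ of the bird cochlea. The members were the alpha subunit *KCNMA1* and the beta subunits *KCNMB1*, *KCNMB2* and *KCNMB4*, taken as the rows of the expression table whose gene symbol, in upper case, was one of these names. The table holds 24880 genes, and it gave 3 of the 4 members. No row carried the symbol *KCNMB2*, and that subunit was not analysed here.

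The pore of a BK channel is formed by alpha subunits, and beta subunits attach to it and change its calcium sensitivity and its speed of opening and closing. In hair cells of birds and turtles, BK channels work together with voltage-gated calcium channels, and the speed of this pair contributes to the electrical resonance by which a hair cell is tuned to its own frequency. The basilar papilla responds to high frequencies at its base and to low frequencies at its apex, an arrangement called the tonotopic axis. The alpha subunit gene is also known for alternative splicing in the cochlea.

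Untreated chickens at post-hatch day 1 were used, and each basilar papilla was divided into a base, a middle and an apex piece. Each region had 3 replicates, 9 RNA-seq libraries in all, and pooled tissue of 12 chickens (24 cochleas) was spread over the 3 replicates of a region. The groups share age, treatment and tissue and differ, by their labels, only in position. Same-numbered libraries appear to come from the same chickens, and the replicate spread is that between pools of animals, not between single animals.

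The expression value is FPKM, a fragment number scaled to the transcript's length and to the library's mapped fragments, so levels of different genes can be set side by side. A piece of tissue holds hair cells, supporting cells, nerve endings and other cells, and in such bulk samples fewer cells of a type and less RNA per cell cannot be told apart. Summed FPKM ran from 660314 to 741975 per library, and between 12477 and 12779 genes reached 1 FPKM. The relative number of fragments, estimated from the steps of low values, ranged from 1 to 1.60. Differences were tested by limma on log2(FPKM + 1) over the 13045 genes with a mean of at least 1 FPKM in at least one region, and a gene was called when its p, adjusted by Benjamini and Hochberg, was under 0.05 and the means differed at least 1.5-fold. Of the hair cell markers, 17 of 19 were found in the table and all 17 passed this filter. In apex against base 14 of the 17 were called higher, against 7.15% of all genes tested.

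**Figure D1:**
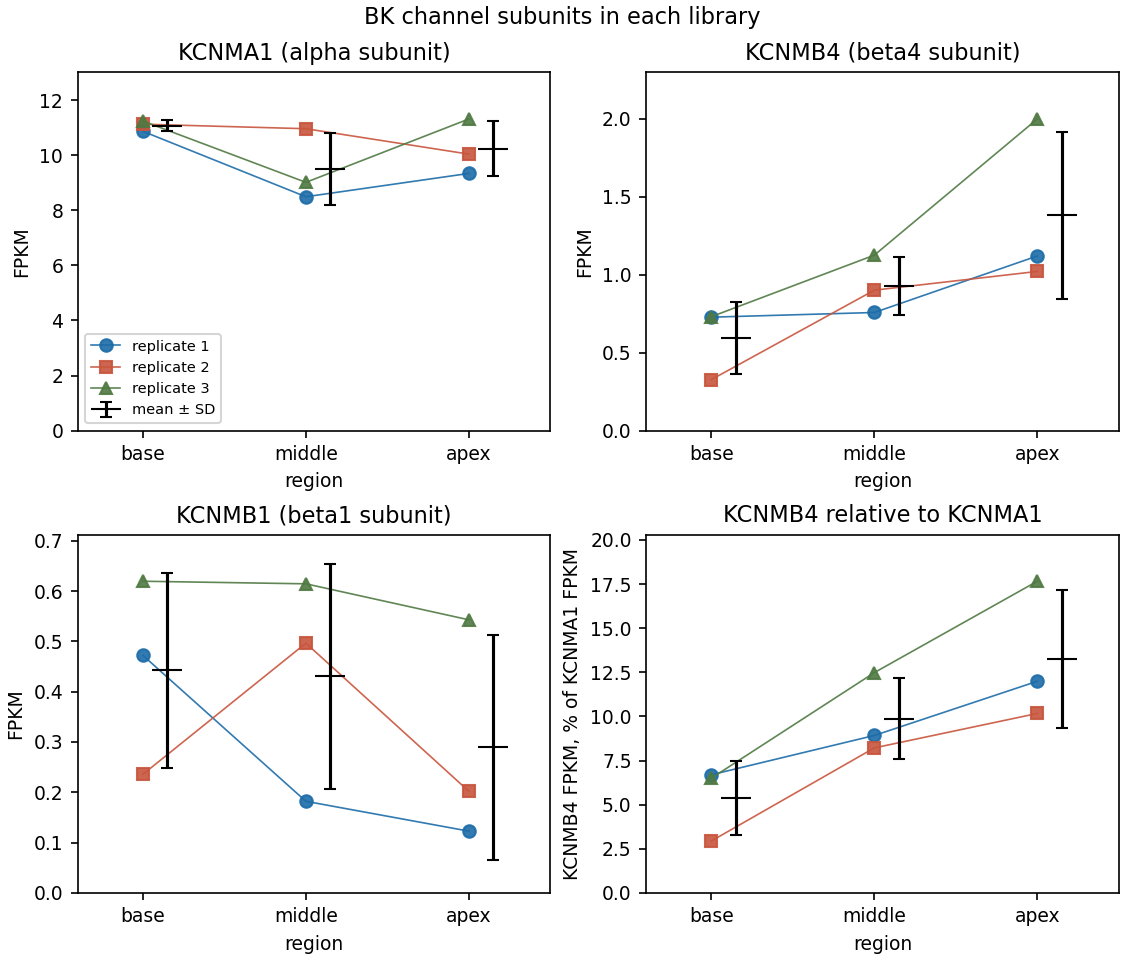
FPKM of *KCNMA1*, *KCNMB4* and *KCNMB1* and *KCNMB4* as a percentage of *KCNMA1* (vertical axes, each from 0) by region (horizontal axis), with symbols for the 3 replicate numbers, lines joining libraries of the same number and black bars for mean ± SD (n = 3). *KCNMA1* stays between 8.49 and 11.3 FPKM, *KCNMB4* lies higher in all 3 apex libraries than in any base library, and *KCNMB1* lies below 1 FPKM in all 9 libraries.

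*KCNMA1*, which encodes the pore-forming alpha subunit, was the most abundant member, and its region means ran from 9.49 to 11.1 FPKM. The gene is listed as ENSGALG00000004980 on chromosome 6, from 13321781 to 13800472 in galGal5. In the base it measured 10.9, 11.1 and 11.2 FPKM in replicates 1 to 3. In the middle it measured 8.49, 11.0 and 9.02 FPKM, and in the apex 9.34, 10.0 and 11.3 FPKM. The base libraries were the tightest group, middle replicate 1 was the lowest library and apex replicate 3 the highest, and the ranges of base and apex overlapped.

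The means of *KCNMA1* were 11.1 ± 0.191 FPKM in base, 9.49 ± 1.30 in middle and 10.2 ± 1.00 in apex (SD, n = 3). The highest of the 9 libraries was 1.33 times the lowest. Among the genes tested, the mean level of *KCNMA1* stood at percentile 37.6, so it was expressed below most of them. In order of level the regions were base, apex, middle, and no neighbours in this order were called as different.

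The comparison of apex with base gave *KCNMA1* a log2 fold change of -0.11 (SE 0.10, 95% interval -0.34 to 0.12, limma adjusted p = 0.499). Between middle and base it was -0.21 (SE 0.10, 95% interval -0.44 to 0.02, limma adjusted p = 0.229). Between apex and middle it was 0.10 (95% interval -0.13 to 0.34, limma adjusted p = 0.892). All 3 intervals on this scale lie within a change of 1.5-fold of FPKM + 1 in either direction. With the replicate number as a block, the 95% interval of middle against base was -0.418 to -0.003 (limma adjusted p = 0.119). Within same-numbered libraries the middle was below the base in all 3 pairs, with differences of -2.38, -0.164 and -2.23 FPKM, as in 29.0% of genes tested, and apex minus base was -1.53, -1.09 and 0.0753 FPKM.

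Order along the tonotopic axis was tested by an exact two-sided permutation test on the pairs of libraries from different regions. The Up-trend and Down-trend classes of the study are defined by ratios of FPKM instead and were not used here. Of 27 such pairs, 11 (40.7%) of *KCNMA1* ascended towards the apex, which gave an exact p of 0.668 and an adjusted p of 0.793 over all genes tested. The test found no order of *KCNMA1* along the axis beyond the replicate spread. A test of order is not made to find a lower middle.

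The FPKM of *KCNMA1* counts its splice forms together, and inclusion of single exons was not analysed here. From its splicing analysis of the RNA-seq reads, the study reported that exon usage of *KCNMA1* differed along the tonotopic axis. It also reported further events in the gene, among them an exon included more at base and apex than in the middle. A level without order along the axis therefore says nothing about these splice forms. The study examined one alternatively spliced stretch of *KCNMA1* by RT-PCR. Its primers are shown because they mark the only *KCNMA1* stretch for which the study gives a designed sequence, and no letters are set in capitals. Both are written from their 5′ end.
*KCNMA1* forward primer: gtttgagcttgtgccgacag
*KCNMA1* reverse primer: tctgattggccatgtgggtg

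An unnamed gene, ENSGALG00000034133, shares its locus entry with *KCNMA1*, so fragments in the overlap could have been assigned to either. It measured between 0 and 0.277 FPKM and was at 0 in 5 of the 9 libraries. At these levels it was small beside *KCNMA1*. How fragments in the overlap were divided is not known, so its low level does not show how far *KCNMA1* was affected.

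*KCNMB4*, which encodes the beta4 subunit, slows the gating of mammalian BK channels and is best known from neurons. It lay at ENSGALG00000010044 on chromosome 1, from 35820990 to 35831958 in galGal5. In the base it measured 0.728, 0.327 and 0.731 FPKM in replicates 1 to 3, in the middle 0.758, 0.901 and 1.13 FPKM, and in the apex 1.12, 1.02 and 2.00 FPKM. Each apex library was above each base library, apex replicate 3 was the highest and base replicate 2 the lowest, and the middle libraries overlapped with the apex and not with the base.

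The means of *KCNMB4* were 0.595 ± 0.232 FPKM in base, 0.928 ± 0.185 in middle and 1.38 ± 0.538 in apex (SD, n = 3). The gene passed the filter on low values only through its apex mean, and its mean level stood at percentile 1.69 of the genes tested. The order of level was apex, middle, base, and the mean in the apex was 2.32 times that in the base. Libraries of apex and base did not overlap, which held for 20.7% of all genes tested in this direction, and those of middle and base did not overlap either, as in 14.1% of genes. In same-numbered libraries the apex exceeded the base by 0.392, 0.694 and 1.27 FPKM, and 32.2% of genes tested were likewise higher in all 3 pairs.

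*KCNMB4* was not called between apex and base without the replicate block. The log2 fold change of FPKM + 1 was 0.56 (SE 0.20, 95% interval 0.11 to 1.02, limma adjusted p = 0.0780). With the replicate number as a block, the same log2 fold change had a limma adjusted p of 0.0264, and the gene was then called as higher in apex. Since the apex mean let *KCNMB4* through the filter, both fits were repeated over all genes of the table, the blocked one added after seeing the data. The limma adjusted p was then 0.125 without and 0.0514 with the block, and *KCNMB4* was not called in either. Of the members that passed the filter, 0 of 2 were called without the block, against 11.8% of all genes tested, 7.15% higher in apex and 4.66% lower. At an unadjusted p under 0.05 limma gave 1 of 2, *KCNMB4*, beside 4632 of the 13045 genes tested. With the filter and the block 1 of 2 was called as higher, against 9.57% of all genes tested, and a count over members chosen by this filter is a description only.

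Neither step of *KCNMB4* between neighbouring regions was called. Middle against base gave a log2 fold change of 0.28 (95% interval -0.18 to 0.74, limma adjusted p = 0.409), with 0 of 2 members called against 4.39% of all genes tested. Apex against middle gave 0.29 (95% interval -0.17 to 0.74, limma adjusted p = 0.787), with 0 of 2 called against 0.0613%. At an unadjusted p under 0.05 limma without the block also gave 0 of 2 members in both of these comparisons, beside 3486 and 1175 of the 13045 genes tested. With the block *KCNMA1* passed that unadjusted threshold between middle and base, as did 5272 of the 13045 genes tested. It also passed with quantile normalization, as did 3644 genes. Without middle replicate 2 it passed as well, as did 3714 of 13036 genes, and without all libraries numbered 2, as did 3512 of 13033. Both intervals of *KCNMB4* reach upwards past a change of 1.5-fold of FPKM + 1. The data therefore do not exclude a step of that size between neighbouring regions.

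In the test of order, 25 of 27 pairs (92.6%) of *KCNMB4* ascended towards the apex. The exact permutation p was 0.00952 and the adjusted p over all genes tested 0.0642, and 13.4% of genes tested rose with an unadjusted p under 0.05 and 3.79% with an adjusted p under 0.05. Permuted within replicate numbers, the exact p was 0.00926, which is the smallest that design can give, and the adjusted p was 0.0516. Over all genes of the table, without the filter that the apex mean passed, these adjusted p values were 0.116 and 0.0948, a comparison added after seeing the data. Without middle replicate 3 all pairs ascended and the exact permutation test had an adjusted p of 0.0411, and without any other single library it stayed between 0.0749 and 0.171. These adjusted p values were taken over the genes past the filter. The test without middle replicate 3 was not repeated without the filter, which *KCNMB4* passed through its apex mean.

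Other properties of the libraries were, as *KCNMB4* was, highest in replicate 3 of each region. The fold change without apex replicate 3, the highest *KCNMB4* library, was 0.39 on the log2 scale (limma adjusted p = 0.224). Of 6 red blood cell markers 2 were found in the table, and their summed FPKM was 306 to 606 in base, 281 to 1073 in middle and 406 to 3635 in apex, also highest in apex replicate 3. Hair cell markers summed to 192, 413 and 619 FPKM in replicate 3 of base, middle and apex. In each region this was their highest library, as it was for *KCNMB4*. The relative number of fragments was also highest in replicate 3 of each region, at 1.18, 1.60 and 1.44. The part of these properties in the *KCNMB4* values was not tested.

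Of 12 neuron markers all were found and 10 passed the filter, and limma called 0 between apex and base, with 1 at an unadjusted p under 0.05. With the block, 1 was called higher in apex than in base, 5 higher in middle than in base and 3 lower in apex than in middle. Of the 13045 genes tested, 1249, 995 and 89 were called in these directions with the block. Their summed FPKM was 160 to 746 in base, 250 to 3125 in middle and 166 to 1533 in apex, highest in replicate 2 of each region, with *PRPH* at 0 everywhere. *KCNMB4* was lowest in replicate 2 in base and in apex. In the middle, replicate 2 lay between the others, at 0.901 FPKM beside 0.758 in replicate 1 and 1.13 in replicate 3. The part of nerve tissue in the *KCNMB4* values was not tested. Without the 3 libraries numbered 2, a comparison chosen after seeing the data, apex against base gave a log2 fold change of 0.54 (limma adjusted p = 0.170).

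*KCNMB1*, which encodes the beta1 subunit, raises the calcium sensitivity of BK channels and is known in mammals as the beta subunit of smooth muscle. It lay at ENSGALG00000002118 on chromosome 13, from 3783482 to 3790486 in galGal5. In the base it measured 0.472, 0.236 and 0.620 FPKM in replicates 1 to 3. In the middle it measured 0.182, 0.497 and 0.615 FPKM, and in the apex 0.123, 0.202 and 0.543 FPKM. All 3 regions overlapped, and replicate 3 was the highest library in each.

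The means of *KCNMB1* were 0.443 ± 0.194 FPKM in base, 0.431 ± 0.224 in middle and 0.289 ± 0.223 in apex (SD, n = 3). It did not pass the filter, so its comparisons come from a fit over all genes of the table. Apex against base gave a log2 fold change of FPKM + 1 of -0.17 (SE 0.17, 95% interval -0.58 to 0.25, limma adjusted p = 0.868). Middle against base gave -0.02 (95% interval -0.43 to 0.40) and apex against middle -0.15 (95% interval -0.57 to 0.26).

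In the test of order 9 of 27 pairs (33.3%) of *KCNMB1* ascended, with an exact permutation p of 0.388. The apex was below the base in all 3 same-numbered pairs, with differences of -0.349, -0.0339 and -0.0767 FPKM, as in 19.3% of all genes of the table. Smooth muscle markers, of which 9 of 11 were found and 8 tested, summed to 464 to 530 FPKM in base, 391 to 491 in middle and 346 to 432 in apex, with *CNN1* at 0 everywhere. Their part in the level of *KCNMB1* was not tested.

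**Figure D2:**
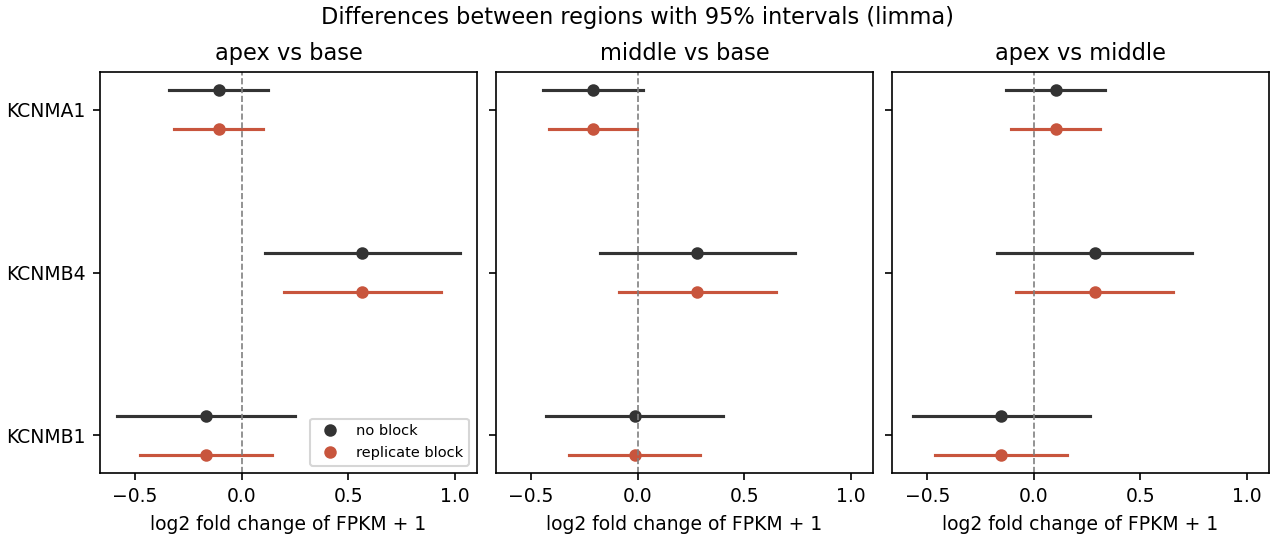
Log2 fold change of FPKM + 1 (horizontal axis) for the 3 members in each of the 3 comparisons, with bars for 95% intervals from limma, without (dark) and with (red) the replicate number as a block; *KCNMB1* comes from the fit over all genes of the table. Only *KCNMB4* between apex and base has an interval above 0, from 0.11 to 1.02 without the block, and that of *KCNMA1* between middle and base lies below 0 only with the block.

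Since beta subunits act on the channel that alpha subunits form, their levels were also set against *KCNMA1* within each library. *KCNMB4* reached 6.69%, 2.94% and 6.50% of the FPKM of *KCNMA1* in base replicates 1 to 3, 8.92%, 8.21% and 12.5% in the middle, and 12.0%, 10.2% and 17.7% in the apex. The base values lay below those of both other regions, and the middle and the apex overlapped. The means were 5.38% ± 2.11 in base, 9.87% ± 2.29 in middle and 13.3% ± 3.91 in apex (SD, n = 3).

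*KCNMB1* reached 3.99% ± 1.72 of the FPKM of *KCNMA1* in base, 4.50% ± 2.34 in middle and 2.71% ± 1.84 in apex (SD, n = 3). Its regions overlapped. Together *KCNMB1* and *KCNMB4* amounted to between 5.06% and 22.5% of *KCNMA1* in any library, so *KCNMA1* transcripts outnumbered both by this measure everywhere. These ratios are a description, without a test.

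*KCNMA1* was then set against genes of hair cells, the sensory cells of the papilla, whose summed level rose along the axis. The 17 hair cell markers summed to 84.9 to 192 FPKM in base, 225 to 413 in middle and 376 to 619 in apex. Between apex and base 14 of 17 were called higher and 0 lower, against 7.15% and 4.66% of all genes tested (15 and 1 at an unadjusted p under 0.05 in limma), with a median log2 fold change of 1.46 beside -0.01 over all genes tested. With the block 15 of the hair cell markers were called higher and 1 lower, beside 1249 and 716 of the 13045 genes tested. Supporting cell markers, without the block, were called higher in 5 of 8, with a median of 0.69.

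The log2(FPKM + 1) of *KCNMA1* minus the mean of the hair cell markers was 1.00, 1.31 and 0.43 in base replicates 1 to 3. It was -0.41, 0.24 and -0.80 in the middle and -0.89, -0.39 and -0.86 in the apex. The base libraries lay above all others, and middle and apex overlapped.

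On average *KCNMA1* stood 0.91 ± 0.45 above the hair cell markers in base, at -0.32 ± 0.53 in middle and at -0.72 ± 0.28 in apex (SD, n = 3). Apex minus base was -1.63 and middle minus base -1.24 on this scale. Against the 8 supporting cell markers, a reference chosen after seeing the data, apex minus base was -1.05. The lists themselves rose and were chosen with results of these libraries known, so these differences are given without a test.

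*KCNMB4*, whose apex libraries lay above its base libraries, was lower relative to the hair cell markers in apex than in base. Its log2(FPKM + 1) minus their mean was -2.02 ± 0.33 in base, -2.77 ± 0.32 in middle and -2.97 ± 0.18 in apex (SD, n = 3). Adding 1 before taking logarithms compresses the changes of a gene at such low levels.

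**Figure D3:**
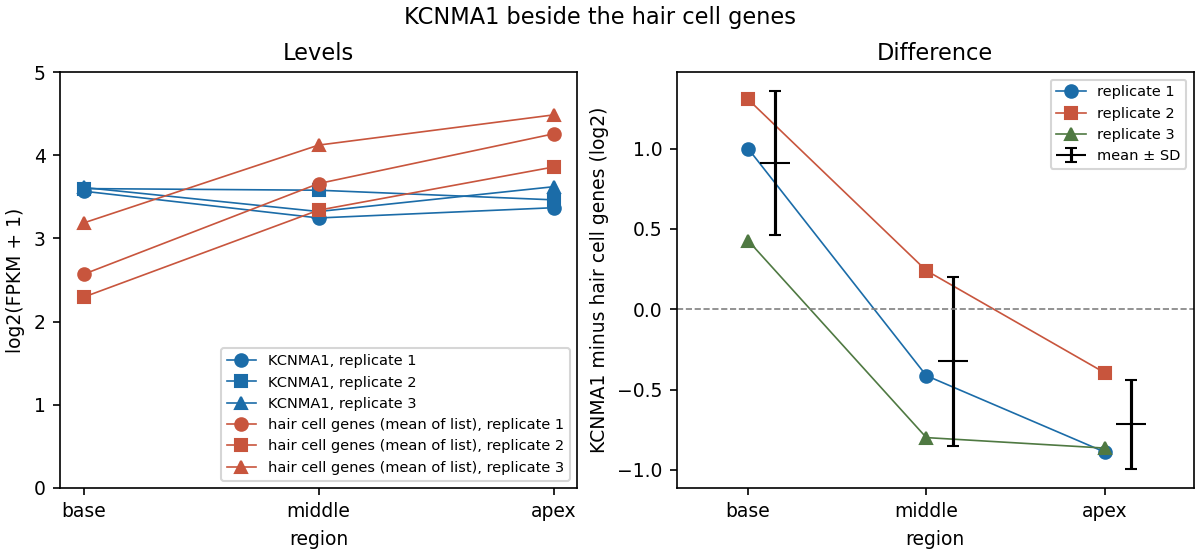
Left, log2(FPKM + 1) of *KCNMA1* (blue) and the mean of 17 hair cell markers (red) by region, with symbols for replicate numbers; right, their difference, with black bars for mean ± SD (n = 3). *KCNMA1* stays between 3.25 and 3.62 while the hair cell mean climbs from between 2.29 and 3.19 in base to between 3.86 and 4.49 in apex. The difference passes from 0.91 in base to -0.72 in apex.

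Further genes of BK channel function were grouped by role. Other auxiliary subunits of BK channels are *KCNMB3* and leucine-rich repeat proteins, and 3 of these 5 genes were found and 2 passed the filter. Of the 2, limma without the block called 0 in any comparison. Of all genes tested it called 11.8% for apex against base, 4.39% for middle against base and 0.0613% for apex against middle. At an unadjusted p under 0.05 limma gave 1 of 2, *LRRC38*, between middle and base, beside 3486 of the 13045 genes tested. *LRRC52*, which in mammals shifts the voltage dependence of BK and related channels, measured 3.77 ± 0.651 FPKM in base, 6.27 ± 2.40 in middle and 4.85 ± 1.68 in apex (SD, n = 3).

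*LRRC52* was called as higher in middle than in base only with the block (limma adjusted p = 0.0298, and 0.263 without it). With the block, 7.63% of all genes tested were called in that direction. *LRRC38*, a related auxiliary protein, measured 6.42, 8.17 and 7.12 FPKM on average in base, middle and apex and was not called. Both exceeded *KCNMB4* in each region's mean, and *LRRC55* did not exceed 0.055 FPKM in any library.

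Relatives of the BK alpha subunit in the Slo family and the small-conductance SK channels were represented by 6 of 7 genes, of which 4 passed the filter. Between apex and base 1 of 4 was called lower and 0 higher, against 4.66% and 7.15% of all genes tested. At an unadjusted p under 0.05 limma gave 3 lower and 0 higher, beside 4632 of the 13045 genes tested in either direction. The gene called lower was *KCNT1*, a sodium-activated potassium channel of the Slo family. It measured 21.7, 19.5 and 27.3 FPKM in base, 15.3, 17.2 and 15.4 in middle and 11.7, 15.8 and 15.9 in apex.

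All *KCNT1* base libraries lay above all others, where 22.0% of genes tested had all base above all apex libraries, and apex against base gave a log2 fold change of -0.63 (SE 0.15, limma adjusted p = 0.0172). *KCNN3*, an SK channel, had the highest level of these relatives, at 66.4 ± 2.88 FPKM in base, 58.6 ± 6.22 in middle and 56.3 ± 2.85 in apex (SD, n = 3), and was not called. *KCNN1*, also an SK channel, measured 5.91 ± 0.396 FPKM in base and 4.35 ± 0.163 in apex (SD, n = 3). Its log2 fold change was -0.37 (limma adjusted p = 0.0317), and it was not called because its means differed less than 1.5-fold. *KCNMA1* lay below *KCNT1* and *KCNN3* in every region's mean and above *KCNN1* and *KCNN2*.

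The genes of calcium entry, through which BK channels of hair cells are opened, gave 9 of 12 in the table, all tested. Between apex and base 5 of 9 were called higher and 0 lower, against 7.15% and 4.66% of all genes tested (5 and 2 at an unadjusted p under 0.05 in limma), with a median log2 fold change of 0.77, beside -0.01 over all genes tested. Between middle and base 2 of 9 were called higher, against 2.93% of all genes tested, and 4 of 9 with the block, against 7.63%. Between apex and middle 1 of 9 was called, against 0.0613%.

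*CACNA1D* encodes the pore of the calcium channel of hair cells, the partner of BK channels in electrical tuning. It measured 6.02, 5.66 and 7.69 FPKM in base, 8.77, 7.23 and 13.3 in middle and 14.1, 13.6 and 16.1 in apex. All apex libraries exceeded all others, where 20.7% of genes tested had all apex above all base libraries, and apex against base gave a log2 fold change of 1.07 (SE 0.19, limma adjusted p = 0.00610).

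Set against *KCNMA1* in the same library, *CACNA1D* amounted to 55.4%, 50.8% and 68.4% of its FPKM in base. It amounted to 103%, 66.0% and 147% in middle and to 151%, 135% and 142% in apex. *KCNMA1* exceeded *CACNA1D* in all base libraries and in middle replicate 2, and *CACNA1D* exceeded *KCNMA1* in the other libraries. The means were 58.2% ± 9.10, 105% ± 40.6 and 143% ± 7.69 (SD, n = 3), given without a test.

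The other 4 genes called between apex and base act with this calcium channel. *CACNB2*, a calcium channel beta subunit, rose from 3.08 ± 0.822 FPKM in base to 5.91 ± 1.20 in apex (SD, n = 3; log2 fold change 0.77, limma adjusted p = 0.0287). *RIMBP2*, which links calcium channels to the release site, rose from 2.73 ± 1.01 to 9.91 ± 1.76 FPKM (1.57, limma adjusted p = 0.00214). *CABP1* and *CABP2* encode calcium-binding proteins that limit inactivation of the channel in mammals.

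*CABP1* measured 14.8 ± 2.79 FPKM in base, 33.0 ± 9.09 in middle and 27.8 ± 4.86 in apex (SD, n = 3). It was called in both regions against base, with a limma adjusted p of 0.0216 for apex and 0.0237 for middle. *CABP2* measured 31.7 ± 2.82, 32.8 ± 1.40 and 73.0 ± 13.6 FPKM (SD, n = 3), so it was level from base to middle and higher in apex. It was called against base (limma adjusted p = 0.00139) and was the gene called against middle (limma adjusted p = 0.0354).

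These calcium entry genes are themselves expressed in hair cells, whose markers rose along the axis as given above. The summed level of 2 lagena markers, given below, was also higher in each apex library than in any other library. The parts of hair cell number and of lagena tissue in the change of the calcium entry genes were not tested. *KCNMA1* and the 5 genes thus had different courses in the same libraries. The difference between those courses was not tested.

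**Figure D4:**
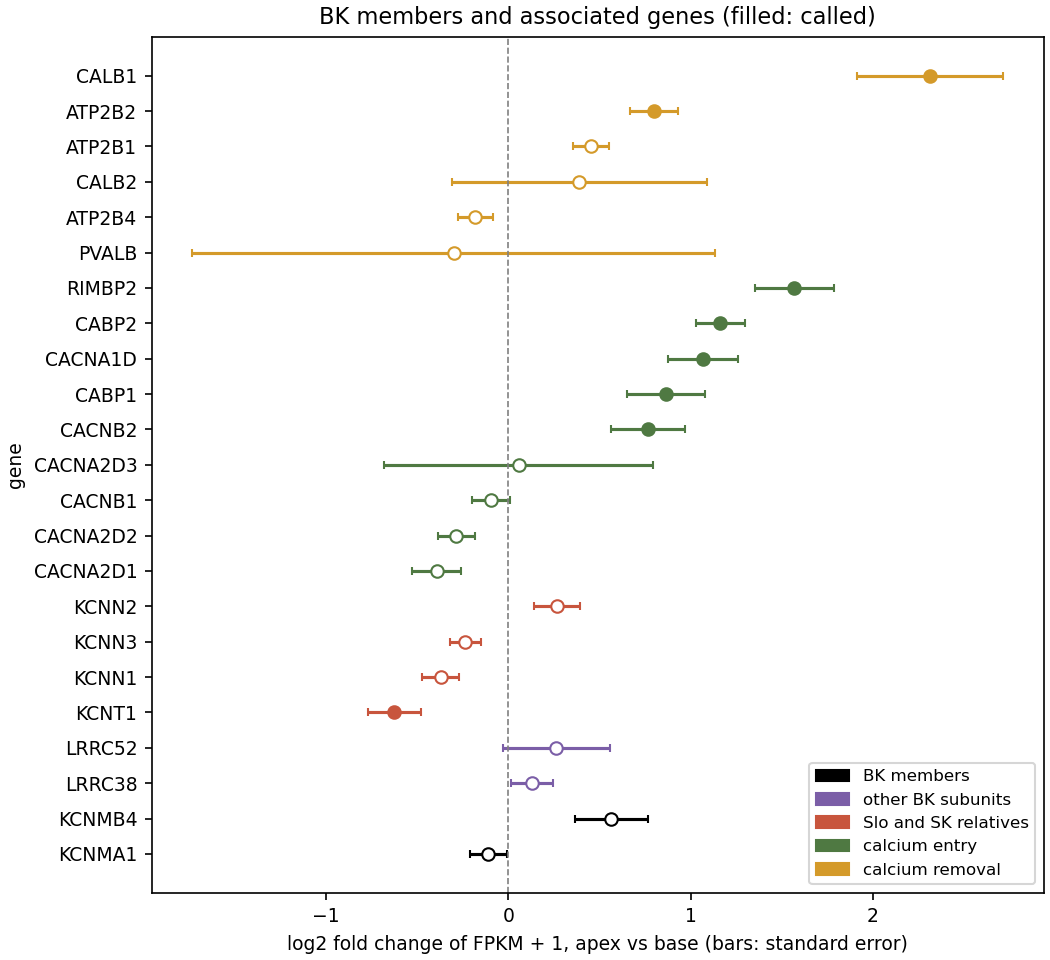
Log2 fold change of FPKM + 1 between apex and base (horizontal axis) for the 2 members that passed the filter and 21 genes of related roles, with bars for the standard error from limma and filled symbols for genes called. Calcium entry genes include 5 called higher, up to 1.57 for *RIMBP2*, while *KCNMA1* lies at -0.11 and *KCNT1*, at -0.63, is the only gene called lower.

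The genes whose pattern over the 9 libraries was most like that of a member were found by Pearson's r of log2(FPKM + 1) and are given as a description. For *KCNMA1* they included *MAU2* (r = 0.949), a cohesin loader, and *MAST2* (r = 0.946), a kinase. *MAU2* averaged 29.5, 27.3 and 27.6 FPKM in base, middle and apex. Its mean was lowest in the middle, as for *KCNMA1*, but close to that in the apex. For *KCNMB4* they were *CDK12* (r = 0.986), a kinase of transcription elongation, *TBCEL* (r = 0.966) and *SYNRG* (r = 0.961).

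*CDK12* averaged 19.8, 21.0 and 22.4 FPKM in base, middle and apex, a much smaller relative change than that of *KCNMB4*. The points share libraries and regions, and the highest of many correlations is high by selection.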

How the data were processed

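Sample titles gave the region (base, middle or apex) and the replicate number of each RNA-seq library. Per the submitters' processing notes and the methods of the study, reads were aligned to galGal5 with STAR 2.5.4b, and the FPKM values the authors deposited came from Cuffdiff 2.2.1 with Ensembl release 91. The normalization between libraries is not given in the sources used here. The table gives no fragment counts, so no counting interval was computed, and relative depth was estimated from the steps of low values. Starts in the table appear to count from 0, and 1 was added. This was inferred from 2961 short loci. End minus start was a multiple of 3 in 48.5% of them, against 23.3% and 28.2% for the other remainders. The authors' Cuffdiff test needs alignments and was not repeated.

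The linear model (limma 3.58.1, R 4.3.3) took log2(FPKM + 1) of the 9 libraries, region and an intensity trend. The fit without the block was tested on simulated data. The changed genes there had higher levels than *KCNMB4* and *KCNMB1*, so that test does not cover changes in genes at their levels. Order along the axis was tested by exact permutation in Python 3.11.15, over 1680 assignments of libraries to regions, and over 216 within replicate numbers. The smallest exact p for 3 against 3 libraries is 0.1. Alternatives were a pseudocount of 0.1, no filter or a filter of 1 FPKM in 6 or more libraries, quantile or median-ratio normalization, no intensity trend, the replicate block, only the 6 libraries compared, adjusted p alone, and each library left out. Fits without the libraries numbered 2, a supporting cell reference, and the block and the order test with no filter were added after seeing the data.

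Same-numbered libraries correlated in their deviations from region means in all 9 pairs (0.37 to 0.66, median 0.46), and differently numbered ones at a median of -0.27. Deviations within a region cancel out, so positive values for same numbers force negative ones among the others. The second median is therefore no separate evidence. The number of chickens in the protocol implies the pairing without stating it.

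Genes named were the members in every library, genes of the lists of other BK subunits, Slo and SK relatives, calcium entry, calcium removal and BK partners that were called in any comparison, and the 3 genes most like each tested member. One gene picked by that rule is left out here. *LRRC38*, *LRRC55*, *KCNN1*, *KCNN2* and *KCNN3* were named after their values were seen, as was *LRRC52*, called only with the block. Members and lists were chosen with earlier results of these data known. For that reason the tests planned for beta-to-alpha ratios and for *KCNMA1* against hair cell markers are not given.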

Additional observations from a re-analysis of the deposited data

How the results depend on the processing

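With 3 libraries per region, the intervals of *KCNMB4* between neighbouring regions do not exclude a change of 1.5-fold. Of the alternatives run, 290 gave the same direction and side of the threshold as the reported value, 4 moved it, 4 passed the threshold where the reported value had not, and 3 reversed it. In many of the 290 the fold change could not differ, as with the block or with a library of the region not compared left out. The 290 also include *KCNMA1* against hair cell markers, whose test is not given. The count therefore does not measure how stable the results are. The number of members called between apex and base was 0 and became 1, *KCNMB4*, with the replicate block, with the block and a pseudocount of 0.1, and with no intensity trend. The log2 fold change of *KCNMB4* was then 0.56 with the block (limma adjusted p = 0.0264), 1.10 with the block and the smaller pseudocount (0.0258) and 0.56 with no trend (0.04996). Without the filter the limma adjusted p with the block was 0.0514, so the call made with the block was lost. It was 0.125 without the block, where the gene was not called with the filter either. The block with the smaller pseudocount and the fit with no trend were not repeated without the filter. The block changed no other call of a member. *KCNMB4* had too few libraries at 1 FPKM for the stricter filter, so the 0 members called there concern *KCNMA1* alone.

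With each library left out in turn, the *KCNMB4* fold change between apex and base ran from 0.39 to 0.67 and 0 members were called in any comparison. The *KCNMA1* fold change between middle and base was -0.31 without middle replicate 2 (limma adjusted p = 0.0678). At the other end of its range it was -0.14, without middle replicate 1 (limma adjusted p = 0.436). The pairs of *KCNMB4* that ascended ran from 90.5% to 100%, and only without middle replicate 3 did the test of order pass the threshold. That test was adjusted over the genes past the filter and was not repeated without the filter. The log2 ratio of *KCNMB4* to *KCNMA1*, apex minus base, was 0.67, moved to 1.21 with a pseudocount of 0.1, and ran from 0.54 to 0.77 with a library left out. The *KCNMB1* fold change between middle and base ran from -0.12 to 0.12 and reversed without base replicate 1 (0.0041), base replicate 3 (0.07) or middle replicate 1 (0.12), with limma adjusted p at 1 throughout. The causes were not tested.

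Over all genes, the block raised the number called from 573 to 1288 between middle and base and from 8 to 275 between apex and middle. With no filter the numbers were 1185, 174 and 1 in the order apex against base, middle against base and apex against middle, against 1541, 573 and 8.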

Other observations

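Proteins that bind or remove calcium set how long it stays near BK channels. Of 9 such genes 6 were found and tested, and limma called 2 higher and 0 lower in apex than in base, against 7.15% and 4.66% of all genes tested, with 3 and 0 at an unadjusted p under 0.05. *CALB1*, the calcium buffer calbindin, measured 296, 272 and 656 FPKM in base, 1167, 805 and 1979 in middle and 1805, 1557 and 2327 in apex. All base libraries lay below all others, where 20.7% of genes tested had all apex above all base libraries, and apex against base gave a log2 fold change of 2.32 (SE 0.40, limma adjusted p = 0.00507). *ATP2B2*, the calcium pump of the hair bundle, rose from 11.3 ± 1.24 FPKM in base to 20.2 ± 3.74 in middle and 20.3 ± 1.20 in apex (SD, n = 3), with a limma adjusted p of 0.0156 for middle and 0.00415 for apex against base. With the block *PVALB*, the buffer parvalbumin, which neurons also express, was called as well between middle and base, and as lower in apex than in middle, at 70.3 ± 91.1 FPKM in base, 235 ± 250 in middle and 94.0 ± 145 in apex (SD, n = 3).

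Of 9 genes for proteins reported to bind or modify BK channels, 7 were found and 6 tested. Limma called 0 of the 6 in any comparison. The shares called of all genes tested were 11.8% (apex against base), 4.39% (middle against base) and 0.0613% (apex against middle). At an unadjusted p under 0.05 limma gave 1 higher and 1 lower in apex than in base, beside 4632 of the 13045 genes tested. It gave 2 higher and 1 lower in middle than in base, beside 3486 genes. For apex against middle it gave 0, beside 1175 genes. *CDK5* was listed at 0 in all libraries. Among markers of other cells, 3 of 4 tested Schwann cell genes were called higher in apex than in base (7.15% of all genes tested). Of the endothelial genes 0 of 5 were called higher (0 higher and 1 lower at an unadjusted p under 0.05 in limma). Of the lagena genes 1 of 2 was called higher. Called lower were 1 of 6 macrophage genes and 1 of 8 smooth muscle genes (4.66%). The 2 lagena genes summed to 8.96 to 32.6 FPKM in apex and to 2.17 to 3.68 in middle. Their base libraries all lay below their apex libraries. The part of lagena tissue in the apex values of other genes was not tested.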
